A study of Mus musculus with 16 samples.

Results

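The genes described here are the 9 posterior *Hox* genes, those of paralog groups 11 to 13: *Hoxa11*, *Hoxc11*, *Hoxd11*, *Hoxc12*, *Hoxd12*, *Hoxa13*, *Hoxb13*, *Hoxc13* and *Hoxd13*. They were taken by symbol from the 26411 genes counted, and all 9 were found. The data were RNA-sequencing read counts from 16 whole mouse embryos at E9.5, 4 for each of 4 genotypes, produced to ask how *Kat6b* overexpression alters the transcriptome of embryos that lack KAT6A. The wild-type genotype was Kat6a+/+Kat6b+/+. The other genotypes were Kat6a-/-Kat6b+/+, in which a deletion of *Kat6a* exons abolishes the protein, Kat6a+/+Tg(Kat6b), which carried extra copies of *Kat6b* on a bacterial artificial chromosome under the gene's own control regions, and Kat6a-/-Tg(Kat6b), which combined both. The transgene derived from 1 founder, and all embryos shared an FVB x BALB/c hybrid background. Each genotype comprised 2 females and 2 males. The labels give no somite number, so the exact stage of each embryo within E9.5 is unknown. The Kat6a-/-Tg(Kat6b) embryos came from 2 litters that held no embryo of another genotype, so genotype and litter cannot be told apart in any comparison that uses them. Kat6a-/-Kat6b+/+ embryos shared their 2 litters with 2 of the wild-type embryos, and Kat6a+/+Tg(Kat6b) embryos shared their 2 litters with the other 2.

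*Hox* genes encode homeodomain transcription factors that give cells their position along the head-to-tail axis. In each of the 4 clusters they are switched on in order, the 3′ genes early and anteriorly and the 5′ genes late and posteriorly, so that groups 11 to 13 mark the tail bud, hindgut and cloaca, and later the distal limb. KAT6A and KAT6B are histone acetyltransferases, and KAT6A loss is known to lower *Hox* mRNA levels.

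Total counts ranged from 14407277 to 45665680 per embryo, and the labels name each embryo as a separate animal. All 11 markers of embryo regions, from forebrain to hindlimb, were counted in every embryo. *Kat6b* mRNA, the check on the transgene, stood at 46.2 ± 2.45 CPM (read counts scaled to a common library size; SD, n = 4) in the wild type and 192 ± 29.7 CPM with the transgene. Without KAT6A it was 49.1 ± 2.03 CPM, and 197 ± 4.92 CPM when the transgene was also present. Whole-gene *Kat6a* counts do not check the deletion, since transcript outside the deleted exons was still counted (199 ± 16.5 CPM in the wild type and 202 ± 15.2 CPM in Kat6a-/-Kat6b+/+ embryos). Visceral yolk sac transcripts were also counted: 7 markers summed to 15.1 to 55.4 CPM in the wild type, 9.79 to 17.5 in Kat6a-/-Kat6b+/+, 5.32 to 49.4 in Kat6a+/+Tg(Kat6b) and 40.7 to 52.8 in Kat6a-/-Tg(Kat6b) embryos. Most of that sum was *Afp* (30.2 ± 15.8 CPM in the wild type and 5.10 ± 2.64 in Kat6a-/-Kat6b+/+ embryos), while *Cubn* (1.35 ± 0.51 and 1.72 ± 0.49) and *Amn* (0.27 ± 0.064 and 0.30 ± 0.16) had the higher mean in the latter. None of the 5 that were tested passed the threshold in any comparison, and *Apoa4* was at 0 in all wild-type and Kat6a+/+Tg(Kat6b) embryos. The 7 trophoblast markers summed to between 5.18 and 9.29 CPM over all embryos, with *Tpbpa* at 0 throughout.

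The 9 genes together received 18131 counts over the 16 embryos, 68.8% of them from HoxD, 23.0% from HoxA, 8.17% from HoxC and 0.0221% from *Hoxb13*. Levels between genes were compared as RPKM (CPM divided by the deposited gene length in kilobases), and their order in the wild type ran *Hoxd11*, *Hoxa11*, *Hoxd13*, *Hoxc11*, *Hoxd12*, *Hoxc12*, *Hoxa13*, *Hoxc13*, *Hoxb13*. The first 3 did not differ beyond their spread: *Hoxd11* was at 4.05 ± 0.77 RPKM, *Hoxa11* at 4.01 ± 0.39 and *Hoxd13* at 3.96 ± 0.58 (SD, n = 4). *Hoxa11* and *Hoxd11* act together in forearm and kidney formation, and *Hoxd13* patterns digits and the urogenital tract. *Hoxc11* followed at 2.85 ± 0.57 RPKM and *Hoxd12* at 1.53 ± 0.28. *Hoxc12* (0.68 ± 0.48) and *Hoxa13* (0.68 ± 0.17), the latter a regulator of digits, hindgut and umbilical vessels, did not differ beyond their spread. *Hoxc13*, best known from hair and nail formation, was lowest of the genes that could be tested, at 0.20 ± 0.079 RPKM. For scale, wild-type levels in the neighbouring groups 9 and 10 ran from 3.27 ± 0.45 RPKM for *Hoxa9* to 40.6 ± 1.84 RPKM for *Hoxb9*.

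**Figure D1:**
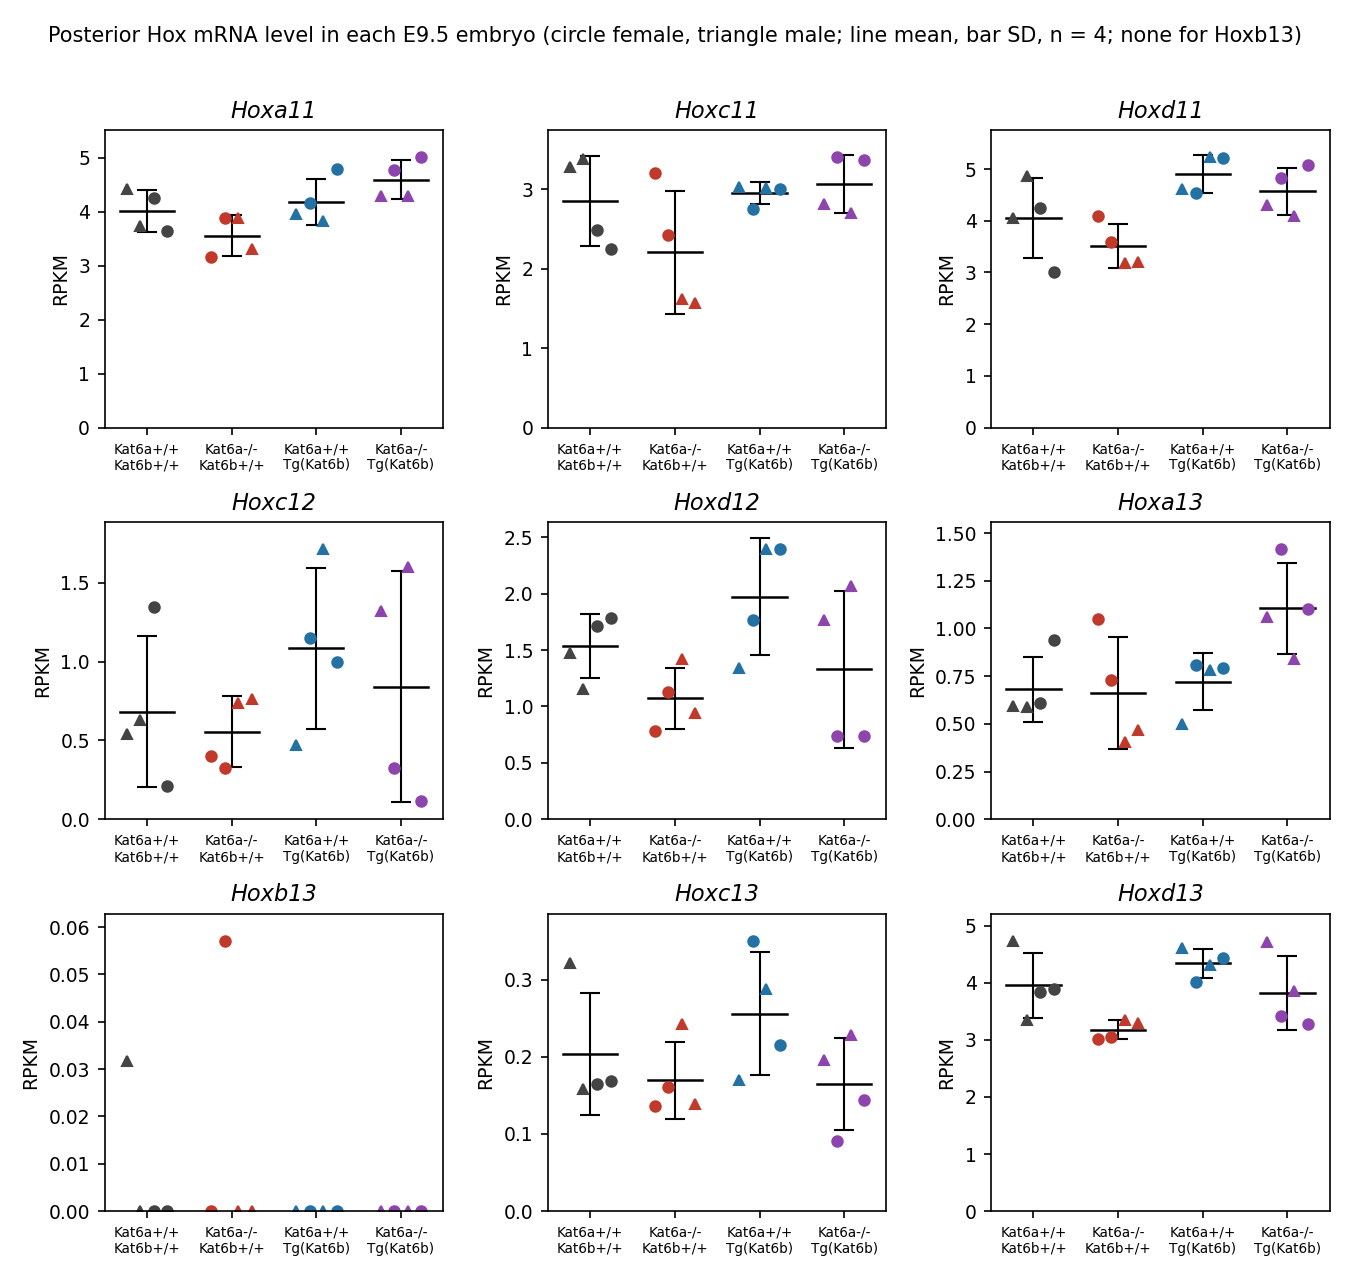
Length-scaled mRNA level (RPKM, vertical axis) of each of the 9 genes in each of the 16 embryos, by genotype; circles are females, triangles males, lines means and bars SD of 4 embryos (not drawn for *Hoxb13*). *Hoxa11*, *Hoxd11* and *Hoxd13* spread less around their means than *Hoxc12*, which runs from 0.11 to 1.71 RPKM.

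*Hoxb13*, a gene whose loss enlarges the caudal spinal cord and tail vertebrae, was close to absent. It received 4 counts in all: 1 in wild-type replicate 1 and 3 in Kat6a-/-Kat6b+/+ replicate 2. No count fell in the 4 Kat6a+/+Tg(Kat6b) or the 4 Kat6a-/-Tg(Kat6b) embryos, which allows levels of up to 0.0316 and 0.0259 CPM respectively (3 counts over the summed library sizes of the group, covering counting error only). A difference in *Hoxb13* between genotypes was not detectable at this depth. It did not pass the filter on low counts, so that 8 of the 9 genes entered the tests.

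The genes lie at the 5′ ends of the clusters, with group 13 outermost (coordinates in GRCm39, the same assembly as the mm39 build used for the counts). *Hoxd13* (chr2:74498654-74501943), *Hoxd12* (chr2:74505357-74508049) and *Hoxd11* (chr2:74509901-74517360) read along the plus strand, as do *Hoxc13* (chr15:102829538-102837249), *Hoxc12* (chr15:102845192-102849289), *Hoxc11* (chr15:102862862-102866143) and *Hoxb13* (chr11:96085106-96088273). *Hoxa11* (chr6:52219074-52222806) and *Hoxa13* (chr6:52234602-52237822) are on the minus strand. With the deposited gene lengths, the level fell with distance in HoxC and HoxA but not in HoxD. In HoxC, *Hoxc11* was above *Hoxc12* in 16 of 16 embryos and *Hoxc12* above *Hoxc13* in 15 of 16, although *Hoxc12* starts 17.7 kb and *Hoxc13* 33.3 kb upstream of *Hoxc11*. *Hoxa13*, 15 kb upstream of *Hoxa11*, was below it in 16 of 16. In HoxD, *Hoxd12*, at 5.62 kb from *Hoxd11*, was below *Hoxd13*, at 12.3 kb, in 16 of 16 embryos, and *Hoxd11* exceeded *Hoxd13* in 11 of 16. Part of this order rests on the lengths. The deposited length of *Hoxc12* was 962 bases against 3276 bases of annotated exons, and with exon lengths, an alternative chosen after seeing the data, *Hoxc12* (0.20 ± 0.14 RPKM in the wild type) exceeded *Hoxc13* (0.20 ± 0.078) in 8 of 16 embryos. *Hoxd11* (4211 against 5904 bases) then exceeded *Hoxd13* in 2 of 16, and *Hoxc11* (915 against 2021 bases) was at 1.29 ± 0.26 RPKM, below *Hoxd12*. The orders *Hoxc11* above *Hoxc12*, *Hoxa11* above *Hoxa13* and *Hoxd13* above *Hoxd12* held in 16 of 16 embryos with either length.

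**Figure D2:**
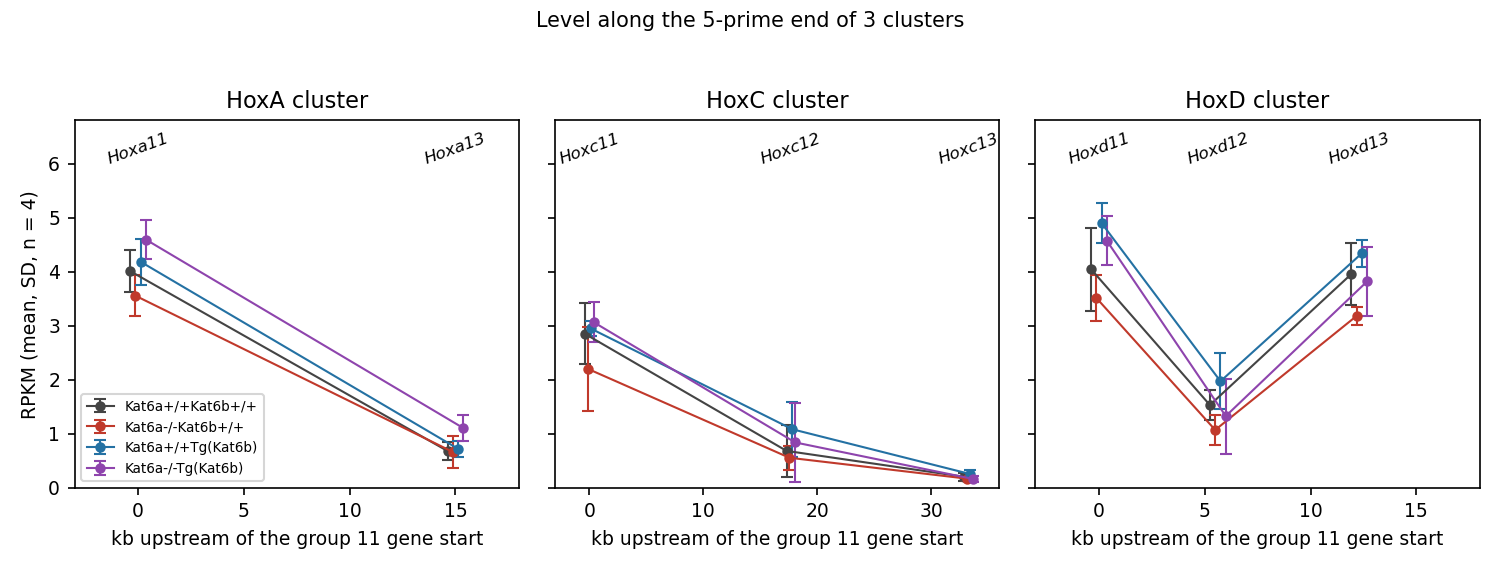
Mean RPKM (vertical axis, bars SD, n = 4) against distance upstream of the start of the group 11 gene (horizontal axis, kb) for the HoxA, HoxC and HoxD genes, 1 line per genotype. With the deposited lengths, the means of HoxA and HoxC fall outward in each of the 4 genotypes, and HoxD dips at *Hoxd12* and rises again at *Hoxd13*.

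*Hoxc12* and *Hoxd12* had the most variation between embryos of 1 genotype relative to counting error, although not in each genotype relative to the mean. The chi-square statistic of the counts within genotypes, which is near 1 per degree of freedom for counting error alone, was 9.99 per degree of freedom (12 degrees) for *Hoxd12* and 8.65 for *Hoxc12*. It was 5.55 for *Hoxd11*, 3.83 for *Hoxd13* and between 1.22 and 2.15 for *Hoxa11*, *Hoxc11*, *Hoxa13* and *Hoxc13*, a measure that also grows with the level of a gene. The coefficient of variation of *Hoxc12* was 69.7% among wild-type, 40.4% among null, 47.1% among transgenic and 87.1% among null transgenic embryos. That of *Hoxd12* was 18.5%, 25.5%, 26.2% and 52.2% in this order, against 19.0% for *Hoxd11* in the wild type and 35.1% for *Hoxc11* and 44.2% for *Hoxa13* in Kat6a-/-Kat6b+/+ embryos, so that its excess lay mainly in the Kat6a-/-Tg(Kat6b) group. Because the group 12 genes and the HoxD genes around *Hoxd12* are compared here, the 250 bases before the start of the canonical transcript are shown, read 5′ to 3′ along each gene from GRCm39 (*Hoxc12* from chr15:102844942-102845191, *Hoxd12* from chr2:74505107-74505356, *Hoxd11* from chr2:74510725-74510974 and *Hoxd13* from chr2:74498404-74498653, all plus strand). For *Hoxd11* the canonical transcript starts at 74510975, inside the span of the whole gene given above, and the distances within HoxD are measured from it. None of these bases lies in an annotated exon, and capitals mark TATAAA or CCAAT matches on either strand, which overlap each other in *Hoxd13*.
Hoxc12: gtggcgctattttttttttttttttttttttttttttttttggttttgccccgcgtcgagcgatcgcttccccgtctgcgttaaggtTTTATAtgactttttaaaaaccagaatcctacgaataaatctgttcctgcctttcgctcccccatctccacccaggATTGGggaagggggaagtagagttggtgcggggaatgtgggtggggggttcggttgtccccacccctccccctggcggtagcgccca
Hoxd12: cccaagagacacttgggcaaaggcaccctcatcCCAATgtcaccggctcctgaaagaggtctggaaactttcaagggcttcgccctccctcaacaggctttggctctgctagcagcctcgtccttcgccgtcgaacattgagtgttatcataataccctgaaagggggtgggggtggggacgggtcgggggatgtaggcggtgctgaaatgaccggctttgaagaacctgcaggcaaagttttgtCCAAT
Hoxd11: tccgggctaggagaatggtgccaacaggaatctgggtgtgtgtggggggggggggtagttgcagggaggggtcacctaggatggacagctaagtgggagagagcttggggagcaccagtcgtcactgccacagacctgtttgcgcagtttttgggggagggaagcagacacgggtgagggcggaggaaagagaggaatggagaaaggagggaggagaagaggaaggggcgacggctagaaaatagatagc
Hoxd13: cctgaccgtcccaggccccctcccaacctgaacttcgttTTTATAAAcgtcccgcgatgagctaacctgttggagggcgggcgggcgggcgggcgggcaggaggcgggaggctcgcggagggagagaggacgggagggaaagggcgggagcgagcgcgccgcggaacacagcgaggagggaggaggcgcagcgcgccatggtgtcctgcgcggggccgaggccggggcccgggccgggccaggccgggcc

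*Hoxc12* held 1 TATAAA and 1 CCAAT match, both on the reverse strand, *Hoxd12* 2 CCAAT matches, *Hoxd13* TATAAA on both strands and *Hoxd11* neither. Over 21602 protein-coding genes, 11.9% of windows of this length held TATAAA and 36.3% held CCAAT on either strand. TTTATNG, a sequence bound by posterior HOX proteins, was in none of the 9 members' windows and in 9.61% of all windows. These matches are descriptions of the letters only.

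In CPM, *Hoxd12* stood at 3.74, 2.93, 4.33 and 4.53 in wild-type replicates 1 to 4. It was at 1.99, 2.87, 3.60 and 2.40 in Kat6a-/-Kat6b+/+, at 3.39, 4.48, 6.06 and 6.07 in Kat6a+/+Tg(Kat6b), and at 4.49, 1.87, 5.24 and 1.87 in Kat6a-/-Tg(Kat6b) embryos. The groups overlapped, and the last one split into a high and a low pair. *Hoxc12*, on another chromosome, was at 0.522, 0.608, 1.29 and 0.206 CPM in the wild type, at 0.387, 0.313, 0.709 and 0.733 in Kat6a-/-Kat6b+/+, at 0.454, 1.11, 1.65 and 0.961 in Kat6a+/+Tg(Kat6b), and at 1.27, 0.311, 1.54 and 0.11 in Kat6a-/-Tg(Kat6b) embryos. It showed the same high and low pair among the Kat6a-/-Tg(Kat6b) embryos, where replicates 1 and 3 were male and replicates 2 and 4 female. The counts behind these 4 values were 40, 7, 25 and 5, with exact 95% Poisson intervals of 0.909 to 1.73, 0.125 to 0.641, 0.997 to 2.28 and 0.0357 to 0.256 CPM. These intervals cover counting error only, not the variation between embryos. In Kat6a-/-Kat6b+/+ embryos the males (0.709 and 0.733 CPM) were also above the females (0.313 and 0.387), but there sex and litter coincided. The order did not hold with KAT6A present, where 1 wild-type female had the highest (1.29) and the other the lowest (0.206) of the wild-type values. The difference between sexes was not tested.

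**Figure D3:**
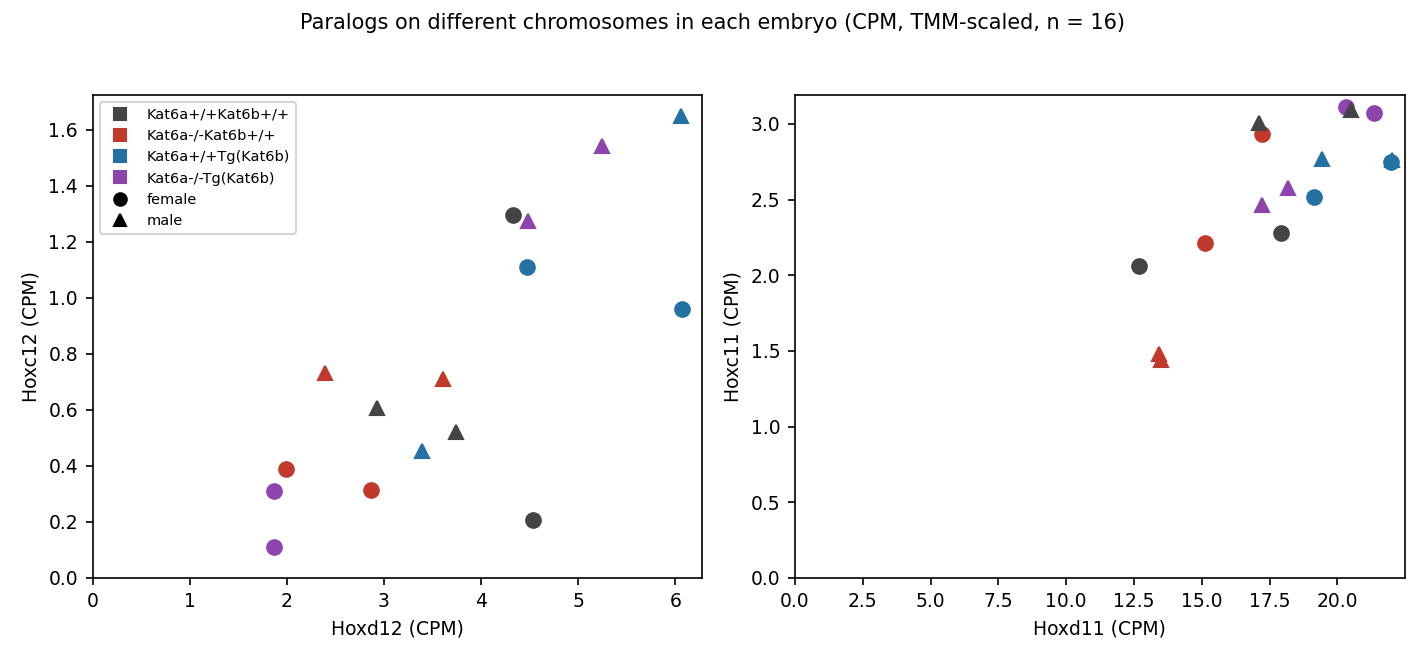
*Hoxc12* against *Hoxd12* (left) and *Hoxc11* against *Hoxd11* (right) in CPM, 1 point per embryo, coloured by genotype, circles female and triangles male. Both pairs of paralogs, which lie on different chromosomes, rise together over the 16 embryos.

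Kat6a-/-Kat6b+/+ embryos were first set against the wild type. Without KAT6A, all 8 tested posterior genes had a lower mean than in the wild type, by fitted log2 fold changes of -0.074 for *Hoxa13* to -0.46 for *Hoxd12*. None passed FDR 0.05 in edgeR, where 1.88% of the 15679 genes tested did, and none did so with DESeq2 (2.65% of all genes) or limma-voom (1.63%). No gene of the 8 had ranges that did not overlap between the groups, as 7.97% of all genes had. The median log2 fold change was -0.31 against 0.0033 over all genes tested. An unadjusted p under 0.05 was reached by 4 of the 8 (*Hoxc11*, *Hoxd11*, *Hoxd12* and *Hoxd13*), as by 15.2% of all genes.

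*Hoxd13* came nearest. It was at 12.2, 8.62, 9.87 and 10.0 CPM in wild-type replicates 1 to 4 and at 7.74, 7.87, 8.63 and 8.48 CPM in the Kat6a-/-Kat6b+/+ embryos. The groups overlapped only in that wild-type replicate 2 lay below the highest Kat6a-/- embryo. The log2 fold change was -0.31 (SE 0.099, 95% confidence interval -0.51 to -0.10, edgeR FDR = 0.12), a fitted change of -19.2%. Within litters the reduction was uneven: the log2 ratio of the 2 null embryos to their wild-type littermate was -0.64 in litter 801 and -0.01 in litter 803. In litter 801 the null embryos were female and the wild-type littermate male, and in litter 803 all 3 were male, so that litter and sex cannot be told apart in these ratios. *Hoxd11* was at 17.1, 20.5, 17.9 and 12.7 CPM in the wild type and at 17.2, 15.1, 13.4 and 13.5 CPM in the null embryos. Its groups overlapped (log2 fold change -0.23, SE 0.096, edgeR FDR = 0.26), and the larger reduction was in the other litter, with ratios of -0.082 in litter 801 and -0.61 in litter 803. *Hoxc11* shared that order (log2 ratio -0.22 in litter 801 and -1.09 in litter 803), with 3.00, 3.09, 2.28 and 2.06 CPM in the wild type against 2.93, 2.22, 1.48 and 1.44 in null embryos. *Hoxc13* and *Hoxc12* had wide intervals, from -1.09 to 0.45 and from -1.39 to 0.65, so that reductions or increases of this size were not detectable. Both genes had few counts, and *Hoxc12* also varied between embryos beyond counting error. *Hoxa13* differed least (0.90 ± 0.22 CPM in the wild type and 0.87 ± 0.39 in the null embryos). The sign was not the same in both litters for every gene. In litters 801 and 803 the log2 ratio was -0.62 and 0.035 for *Hoxd12* and -0.58 and 0.25 for *Hoxc12*. It was -1.12 and 0.26 for *Hoxc13*, 0.58 and -0.43 for *Hoxa13*, and -0.33 and -0.051 for *Hoxa11*. In bulk samples such as these, fewer cells that express a gene and less RNA per cell cannot be told apart. The summed yolk sac markers, mostly *Afp*, averaged 12.8 CPM in the Kat6a-/-Kat6b+/+ embryos and 39.8 CPM in the wild type, and their part in the differences was not tested.

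**Figure D4:**
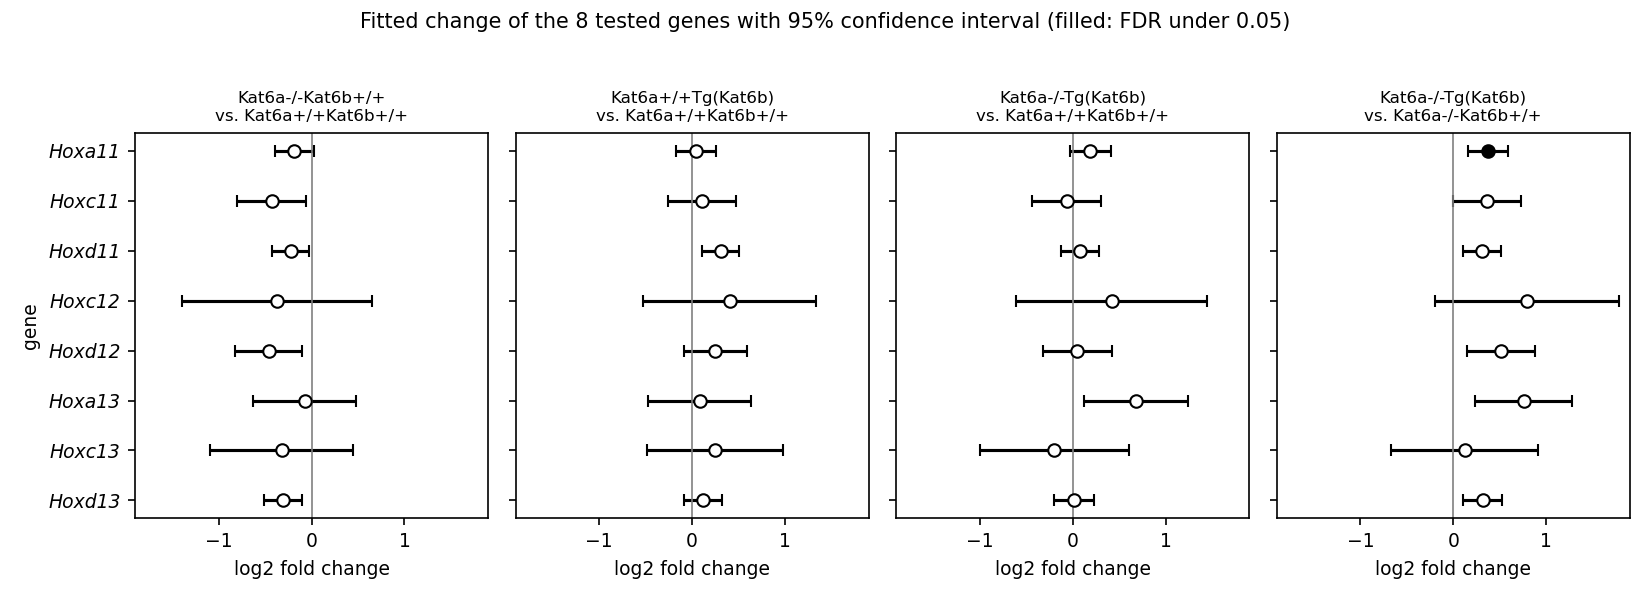
Fitted log2 fold change (horizontal axis, point) with its 95% confidence interval (bar) for the 8 tested genes in 4 comparisons. All points lie left of 0 in the first panel and right of 0 in both panels that show the effect of the transgene with the *Kat6a* genotype held equal, and the filled point is *Hoxa11*, at 0.37, the gene past FDR 0.05.

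In Kat6a+/+Tg(Kat6b) embryos, where the transgene was added to intact *Kat6a*, all 8 genes had a higher mean than in the wild type, and none passed the FDR threshold in edgeR, DESeq2 or limma-voom, which 0.14%, 1.4% and 0.115% of all genes did. The ranges overlapped for all 8, while 4% of all genes had ranges that did not. The fitted log2 fold changes ran from 0.041 for *Hoxa11* to 0.41 for *Hoxc12*, with a median of 0.18 against 0.0016 over all genes. *Hoxd11* was the one gene with an unadjusted p under 0.05, as for 11.5% of all genes. It stood at 19.4, 19.1, 22.0 and 22.0 CPM in the transgenic embryos, all above 3 of the 4 wild-type values and 2 of them above the highest. The log2 fold change was 0.31 (SE 0.095, 95% confidence interval 0.11 to 0.51, edgeR FDR = 0.21), and the log2 ratio to the wild-type littermate was 0.17 in litter 2597 and 0.79 in litter 2598. *Hoxd13* was at 11.9, 10.3, 11.1 and 11.4 CPM, within the wild-type range (log2 fold change 0.12, SE 0.098, edgeR FDR = 0.72). *Hoxc13*, at 0.62 ± 0.19 CPM, was higher by 0.25 on the log2 scale with an interval from -0.48 to 0.98. In litters 2597 and 2598 the log2 ratio to the littermate was -0.093 and 0.39 for *Hoxa11* and 0.19 and -0.24 for *Hoxa13*. For *Hoxc12* it was -0.27 in litter 2597 and was not computed in litter 2598, on 3 wild-type counts. It was above 0 in both litters for *Hoxc11*, *Hoxd11*, *Hoxd12*, *Hoxc13* and *Hoxd13*.

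In null embryos that carried the transgene the posterior genes lay on both sides of the wild type. The plain means were higher for 5 of the 8 and lower for 3, the median log2 fold change was 0.066 against -0.0031 over all genes, and none of the 8 passed the threshold in edgeR, DESeq2 or limma-voom (0.67%, 1.56% and 0.67% of all genes did). The ranges overlapped for all 8, against 7.1% of all genes whose ranges did not. *Hoxa13* had the largest difference and the only unadjusted p under 0.05 (12.7% of all genes). It was at 0.784, 0.773, 0.804 and 1.24 CPM in the wild type and at 1.40, 1.87, 1.11 and 1.45 CPM in Kat6a-/-Tg(Kat6b) embryos. Only the highest wild-type embryo reached into the range of the other group. The log2 fold change was 0.68 (SE 0.27, 95% confidence interval 0.12 to 1.24, edgeR FDR = 0.28), on counts of 14 to 18 and 18 to 66. For *Hoxd13* the interval of the log2 fold change ran from -0.20 to 0.22, for *Hoxd11* from -0.12 to 0.29 and for *Hoxa11* from -0.032 to 0.41. *Hoxc12*, *Hoxd12* and *Hoxc13* allowed changes of up to 1.45, 0.42 and 0.61 upward. The fitted sign for *Hoxc11*, *Hoxd12* and *Hoxd13* was opposite to that of the plain means and turned with the covariates.

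Among embryos without KAT6A, those with the transgene had higher *Hoxa11* mRNA, the only posterior gene past the threshold in edgeR with 2 surrogate variables in any of the 6 comparisons. Its values were 9.80, 10.9, 9.80 and 11.4 CPM with the transgene and 7.19, 8.84, 8.86 and 7.55 CPM without it. The groups did not overlap, as for 7.29% of all genes in this direction. The log2 fold change was 0.37 (SE 0.104, 95% confidence interval 0.16 to 0.59, edgeR FDR = 0.033), a fitted increase of 29.6%. Compared with the wild type (10.1, 8.51, 9.69 and 8.31 CPM) *Hoxa11* was neither lower without KAT6A (log2 fold change -0.18, SE 0.10, edgeR FDR = 0.41) nor higher with both changes (0.19, SE 0.11, edgeR FDR = 0.48) past the threshold.

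The 1 of 8 genes called in this comparison stands beside 7.14% of all genes called in either direction and 3.39% called higher. An unadjusted p under 0.05 was reached by 5 of the 8 and by 23.2% of all genes. The *Hoxa11* call was lost without Kat6a-/-Kat6b+/+ replicate 1 (0.30, FDR = 0.14) or replicate 4 (0.35, FDR = 0.075), and without Kat6a-/-Tg(Kat6b) replicate 2 (0.38, FDR = 0.062), 3 (0.40, FDR = 0.057) or 4 (0.35, FDR = 0.091), all from edgeR refitted on 15 embryos. *Hoxa11* counts are uncertain for another reason: 43.6% of its exon bases overlap *Hoxa11os*, a noncoding gene on the opposite strand, and the strand setting of the counting is not given in the sources used here, so that reads from the 2 genes cannot be told apart. *Hoxa11os* was itself called higher in this comparison (7.76 ± 0.51 against 5.78 ± 0.54 CPM, log2 fold change 0.43, SE 0.12, edgeR FDR = 0.031).

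The other 7 genes had positive fitted changes that did not pass the edgeR threshold, with a median over the 8 of 0.37 against -0.0049 for all genes. *Hoxd11* (18.2, 20.3, 17.2 and 21.4 CPM against 17.2, 15.1, 13.4 and 13.5 CPM) had a log2 fold change of 0.31 (SE 0.097, edgeR FDR = 0.057), and the groups met at 17.2 CPM. *Hoxd13* (12.1, 8.80, 9.93 and 8.46 CPM against 7.74 to 8.63 CPM) had one of 0.32 (SE 0.10, edgeR FDR = 0.057), with 1 embryo of the transgenic group inside the range of the other. With DESeq2 and with limma-voom both of these genes passed (adjusted p of 0.041 and 0.049 with DESeq2, 0.035 and 0.047 with limma-voom), so that 3 of the 8 were called; DESeq2 called 8.39% and limma-voom 7.99% of all genes. *Hoxa13* was at 1.46 ± 0.31 against 0.87 ± 0.39 CPM (log2 fold change 0.76, SE 0.25, edgeR FDR = 0.067), and its null embryos were at 1.38 and 0.964 CPM in the 2 females, of litter 801, and at 0.532 and 0.62 CPM in the 2 males, of litter 803. *Hoxd12* had a fitted change of 0.51 (SE 0.18, edgeR FDR = 0.079) that was 0.27 without surrogate variables (FDR = 0.68). *Hoxc11* (2.81 ± 0.33 against 2.02 ± 0.71 CPM) and *Hoxc12* (0.81 ± 0.70 against 0.54 ± 0.22) had intervals that included 0. *Hoxc13* had a fitted change of 0.12 although its plain mean was lower with the transgene (0.40 ± 0.15 against 0.41 ± 0.12 CPM). The summed yolk sac markers, again mostly *Afp*, averaged 45.1 CPM with the transgene and 12.8 CPM without it, and the summed trophoblast markers ran from 7.03 to 9.29 CPM against 5.38 to 6.88 CPM, without overlap; their part was not tested.

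The transgene effect without KAT6A was also set against its effect with KAT6A. No posterior gene passed this interaction test in edgeR, DESeq2 or limma-voom (0.153%, 0.88% and 0.159% of all genes did). *Hoxa11* was the gene with an unadjusted p under 0.05, with a difference of 0.33 between the 2 log2 fold changes (95% confidence interval 0.022 to 0.64, edgeR FDR = 0.32), and 14.6% of all genes reached that level. KAT6A loss in the presence of the transgene (Kat6a-/-Tg(Kat6b) vs. Kat6a+/+Tg(Kat6b)) gave no call with any of the 3 tools, which called 3.41% (edgeR), 5.63% (DESeq2) and 3.77% (limma-voom) of all genes, with log2 fold changes between -0.45 and 0.60 and a median of -0.14 over the 8 genes; 2 had an unadjusted p under 0.05 (18.9% of all genes). The upper end was *Hoxa13*, whose values did not overlap between these groups (1.11 to 1.87 against 0.661 to 1.07 CPM), as for 6.09% of all genes in this direction, with an edgeR FDR of 0.23.

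The posterior genes stood beside the other 30 *Hox* genes as follows. Without KAT6A, 2 of the 7 genes of groups 9 and 10, 2 of the 8 of groups 6 to 8 and 5 of the 15 of groups 1 to 5 were lower past the threshold and none was higher, against 0 of 8 in groups 11 to 13 and 0.938% of all genes. The medians were -0.30, -0.04, -0.14 and, for groups 11 to 13, -0.31 on the log2 scale. The posterior genes were thus as far from 0 as groups 9 and 10 in their median. The SE was 0.096 to 0.49 for the posterior genes and 0.048 to 0.14 for the genes of groups 9 and 10, so that the ranges overlapped. The 2 called there were *Hoxb9* (log2 fold change -0.33, SE 0.048, edgeR FDR = 6.0e-04) and *Hoxa10* (-0.35, SE 0.076, edgeR FDR = 0.017). *Hoxc10*, with an SE of 0.068, was not called (-0.024), and the part of the SE in these calls was not tested. When the transgene was added to null embryos, 5 of 7, 5 of 8 and 8 of 15 genes of those groups were higher and none was lower. This stands against 1 of 8 in groups 11 to 13 and 3.39% of all genes called higher. *Hoxa10*, next to *Hoxa11*, rose by 0.77 (SE 0.076, edgeR FDR = 3.8e-06). Against the wild type 3 of the 7 genes of groups 9 and 10 were higher in the Kat6a-/-Tg(Kat6b) embryos (0.274% of all genes), *Hoxa10* among them (0.42, SE 0.077, edgeR FDR = 0.011). Whether these shares differ between paralog groups was not tested.

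**Figure D5:**
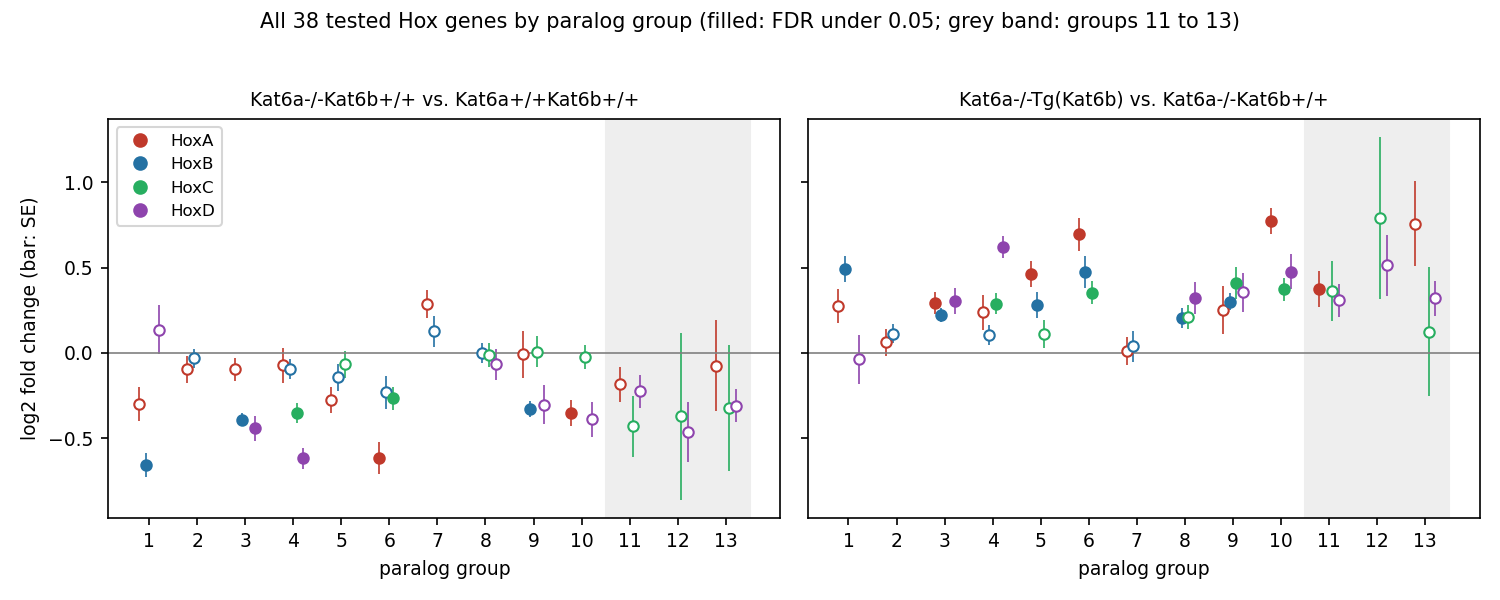
Fitted log2 fold change (vertical axis, bar SE) of the 38 tested *Hox* genes by paralog group (horizontal axis) in 2 comparisons, coloured by cluster, with filled points past FDR 0.05. The points of groups 11 to 13 (grey band) lie below 0 on the left and above 0 on the right, and the single filled one is *Hoxa11*, at 0.37. On the left the longest bar is that of *Hoxc12* (SE 0.49), but *Hoxd11* (0.096) has a shorter bar than *Hoxa9* (0.14).

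Genes that lie near the posterior *Hox* genes, or that act with or upstream of them, were counted from 3 lists. Of 7 tested genes in or near the clusters, none passed in the null embryos. When the transgene was added to null embryos, 2 were higher (3.39% of all genes). They were *Hoxa11os* and *Evx1*, the homeobox gene beyond *Hoxa13* (log2 fold change 0.49, SE 0.14, edgeR FDR = 0.033). Of 17 regulators and tail bud genes, 4 were lower in Kat6a-/-Kat6b+/+ embryos (0.938% of all genes): *Cdx2*, a direct activator of *Hox* clusters (-0.42, SE 0.11, edgeR FDR = 0.043), *Wnt5a* (-0.32), *Aldh1a2*, which makes retinoic acid (-0.27), and *Nr6a1* (-0.18). With the transgene alone, 2 of the 17 were higher than in the wild type (0.0574% of all genes), *Cdx2* (0.51, SE 0.10) and *T*, the brachyury gene of the tail bud (0.59, SE 0.11), both with an edgeR FDR of 0.042. The ranges overlapped in these *Cdx2* and *T* calls. *Cdx2* was at 8.56 ± 3.84, 6.58 ± 2.42, 10.8 ± 2.05 and 13.4 ± 5.42 CPM in wild-type, null, transgenic and null transgenic embryos. *T* was at 13.5 ± 5.25 CPM in the wild type and 18.6 ± 2.14 with the transgene alone. How the calls in these lists depend on the covariates was not tested. Among null embryos, 5 of the 17 were higher with the transgene (3.39% of all genes), among them *Cdx2* (0.66, SE 0.10, edgeR FDR = 8.3e-04), *Wnt5a* (0.43) and *Nkx1-2* (0.65), and *T* was not (0.13, SE 0.11, edgeR FDR = 0.51). *Aldh1a2* did not pass either (-0.0073, SE 0.044, edgeR FDR = 0.94), and it was lower in Kat6a-/-Tg(Kat6b) embryos than in the wild type (-0.28, SE 0.045, edgeR FDR = 0.0044). Of 16 genes of the hindlimb, cloaca and kidney fields, 3 were lower in the null embryos (0.938% of all genes), *Six2* (-0.70), *Pax2* (-0.40) and *Sall1* (-0.20), and 4 were higher in null embryos with the transgene than without it (3.39% of all genes). By adjusted p these were *Six2*, a gene of nephron progenitors (0.59, SE 0.10, edgeR FDR = 0.0021), the hindlimb genes *Pitx1* (0.91, SE 0.15, edgeR FDR = 0.0047) and *Tbx4* (1.02, SE 0.20, edgeR FDR = 0.0092), and *Sall1* (0.20, SE 0.053, edgeR FDR = 0.031).

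The posterior genes varied in 2 opposite ways between embryos of the same genotype, a pattern noticed in these data. The correlations that follow are of log2 CPM after subtraction of genotype means over 16 embryos, which share litters and library depth, and they are descriptions. The exact stage of the embryos is unknown, and its part in this variation was not tested. *Hoxc11* and *Hoxd11* varied together (r = 0.77), as did *Hoxc12* and *Hoxd12* (r = 0.70), *Hoxd12* and *Hoxc13* (r = 0.62) and *Hoxd12* and *Hoxd13* (r = 0.54). The sign was negative for other pairs: r was -0.53 between *Hoxc11* and *Hoxd12* and -0.42 between *Hoxd11* and *Hoxd13*, both in HoxD. The tail bud genes had opposite signs likewise. *T* had r = 0.80 with *Hoxc11* and 0.82 with *Hoxd11* but -0.65 with *Hoxd12* and -0.46 with *Hoxd13*, and *Cdx2* had r = 0.75, 0.73, -0.85 and -0.69 with the same genes. *Hoxa11* followed neither pattern (r = 0.0056 with *Cdx2* and 0.41 with *Hoxa11os*).

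The genes most like the posterior genes were ranked by Pearson r over the 16 embryos, without subtraction of genotype means. For the mean of the 8 standardised genes they were *Zfp931* (r = 0.92), *Slc14a1* (0.85), *Hoxa6* (0.85), *Foxl2os* (0.85) and *Hoxa11os* (0.84). For *Hoxd11*, the posterior gene with the highest CPM, they were *Cyp26c1* (0.89) and *Cyp26a1* (0.86), which encode enzymes that break down retinoic acid, *Tmed5* (0.86), *Rspo3* (0.84) and *Lypla1* (0.84).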

How the data were processed

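RNA was sequenced from 16 whole embryos (TruSeq RNA v2 libraries, paired-end reads). According to the study's methods the authors aligned the reads to mm39 with Rsubread, and the submitters' processing notes name featureCounts and bcl2fastq; the annotation, the strand setting and the treatment of shared reads are not given in the sources used here. The authors deposited raw counts per gene, with a gene length, for each embryo.

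From these counts, genes passing edgeR's filterByExpr (default settings) were scaled by TMM (factors 0.985 to 1.02) and fitted over all 16 embryos with genotype and 2 surrogate variables (sva 3.50.0), and tested by edgeR 4.0.16 (robust quasi-likelihood, R 4.3.3) with Benjamini-Hochberg adjustment over 15679 genes and a threshold of 0.05. The first surrogate variable followed sex, at 0.18 to 0.30 in females and -0.28 to -0.22 in males. Among Kat6a-/-Tg(Kat6b) embryos the second was at -0.41 and -0.33 in the females and at 0.017 and 0.034 in the males. CPM and RPKM use TMM-scaled library sizes and the deposited lengths. SE is the log2 fold change over the square root of F. Alternatives included DESeq2 1.42.0, limma-voom (limma 3.58.1), other covariates and filters, and leaving out each embryo. The fits were tested on simulated counts only without surrogate variables, and for changes larger than the main fit gave for the posterior genes. The main fit itself was thus not tested in this way. The genes and lists were chosen with earlier results of these data known. Among other genes, those past the threshold were named, at most 6 a list by smallest adjusted p, with the 5 most correlated genes. Depth was 14407277 to 45665680 counts per embryo. Intervals are wide for genes under 1 CPM, which had few counts, and for *Hoxc12* the variation between embryos added to this. Positions and sequence are from GRCm39 and GENCODE.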

Additional observations from a re-analysis of the deposited data

Results flagged for a closer look

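In 34 groups of 4 embryos (the 9 genes in 4 genotypes, leaving out 2 with no count), the highest or lowest value was compared with the nearest other value, and the gap, as a share of the group's range, exceeded Dixon's 95% critical value in 6. Chance gives about 1 in 20 for continuous values, which does not apply to the 2 *Hoxb13* groups among the 6, where 3 zeros and 1 other value pass by construction. *Hoxc11* was lowest in Kat6a+/+Tg(Kat6b) replicate 2 (2.52 CPM), in a group whose SD was only 0.12 CPM. *Hoxa13* was highest in wild-type replicate 4 (1.24 CPM, 18 counts) and lowest in Kat6a+/+Tg(Kat6b) replicate 1 (0.661 CPM, 16 counts). *Hoxc13* was highest in wild-type replicate 1 (0.784 CPM, 18 counts). *Hoxb13* had its counts in wild-type replicate 1 (0.0435 CPM, 1 count) and Kat6a-/-Kat6b+/+ replicate 2 (0.0782 CPM, 3 counts), where the other 3 embryos were at 0. No interaction of the 8 tested genes passed the threshold.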

How the results depend on the processing

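In the comparisons other than Kat6a-/-Tg(Kat6b) vs. Kat6a-/-Kat6b+/+ no posterior gene was called under any alternative tried. In that comparison 1 gene was called (7.14% of all genes), against 3 with DESeq2 (8.39%) and 3 with limma-voom (7.99%). The number was 2 without a filter, 2 with a mean count of at least 10, and 2 with only the genotypes compared. Leaving out 1 embryo gave 0 to 3, and without Kat6a-/-Tg(Kat6b) replicate 4 the 1 call was *Hoxd12* and not *Hoxa11*. For the settings other than DESeq2 and limma-voom the share of all genes called is not given here, so these numbers cannot be set against it. The cause of these differences was not tested. Replicate numbers did not pair the embryos (r of same-numbered deviations -0.26 to 0.22, 4 of 16 embryos nearest to their own number). With the replicate block in place of the surrogate variables *Hoxa11* stayed called (0.37, FDR = 0.046) and no call over the 9 genes changed. Over all genes this fit called 127 instead of 295 genes in Kat6a-/-Kat6b+/+ vs. wild type. A litter block, possible for the comparisons of each single change with the wild type, called 18 and 1 genes in all, against 295 and 22. That fit also left out the Kat6a-/-Tg(Kat6b) embryos and the surrogate variables, so the drop cannot be assigned to the block alone.

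These fitted log2 fold changes changed sign. With the litter block, *Hoxa13* in Kat6a-/-Kat6b+/+ vs. wild type was 0.13. Without a filter, *Hoxa11* in Kat6a+/+Tg(Kat6b) vs. wild type was -3.2e-08. In Kat6a-/-Tg(Kat6b) vs. wild type, *Hoxc11* was 0.11 without surrogate variables, 0.086 with 1, 0.092 with sex, 0.12 with the replicate block and 0.11 with only the genotypes compared. In the same order *Hoxd12* was -0.25, -0.28, -0.29, -0.26 and -0.25 (and -0.11 without a filter), and *Hoxd13* was -0.056, -0.052, -0.057, -0.056 and -0.054 (and -0.0033 without a filter). *Hoxc12* was -0.011 with 1 surrogate variable and -0.037 with sex. In Kat6a-/-Tg(Kat6b) vs. Kat6a-/-Kat6b+/+, *Hoxc13* was -0.028, -0.027, -0.024, -0.032 and -0.024 in that order of settings.

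Leaving out 1 embryo also turned signs. In Kat6a-/-Kat6b+/+ vs. wild type the range was -0.68 to 0.12 for *Hoxc12*, -0.22 to 0.0095 for *Hoxa13* and -0.48 to 0.021 for *Hoxc13*. In Kat6a+/+Tg(Kat6b) vs. wild type it was -0.037 to 0.11 for *Hoxa11*, -0.081 to 0.20 for *Hoxa13* and -0.0071 to 0.59 for *Hoxc13*. In Kat6a-/-Tg(Kat6b) vs. wild type it was -0.11 to 0.037 for *Hoxc11*, -0.15 to 0.17 for *Hoxd12*, -0.35 to 0.19 for *Hoxc13* and -0.14 to 0.12 for *Hoxd13*, and in Kat6a-/-Tg(Kat6b) vs. Kat6a-/-Kat6b+/+ it was -0.039 to 0.20 for *Hoxc13*. Levels in CPM moved by less than 1 SD with total counts as library sizes.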

Other observations

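For the mean of *Hoxc12* and *Hoxd12*, chosen after their values were seen because they varied most between embryos, the 5 most correlated genes over the 16 embryos were *Zfp994* (r = 0.91), *Lbx1*, a gene of migrating limb muscle precursors (0.90), *Fam210b* (0.89), *Pax9*, a gene of sclerotome and pharyngeal pouches (0.88), and *Lpin2* (0.88).

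*Hotair*, the noncoding gene between *Hoxc12* and *Hoxc11*, was at 0.76 ± 0.32, 0.49 ± 0.16, 0.93 ± 0.18 and 0.59 ± 0.18 CPM in wild-type, null, transgenic and null transgenic embryos. It passed the threshold in no comparison, and its within-genotype r was 0.54 with *Hoxc12* and 0.019 with *Hoxc11*. *Evx2*, beyond *Hoxd13*, was at 0.86 ± 0.18, 1.34 ± 0.21, 0.92 ± 0.35 and 1.12 ± 0.093 CPM in the same order, and it passed the threshold in no comparison either.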
